A study of Homo sapiens with 9 samples.

Results

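The 10 genes described here act on Notch receptors and their ligands after transcription: *POFUT1* and *POGLUT1*, which attach sugars to the receptor, the fringe enzymes *LFNG*, *MFNG* and *RFNG*, which extend one of those sugars, the ubiquitin ligases *MIB1* and *NEURL1B*, which drive ligand uptake, the endocytic adaptors *NUMB* and *NUMBL*, and the protease *ADAM17*. They were taken by name from the count tables, and all 10 were found among the 56505 gene symbols listed there. Their RNA was measured in 3 lines of the cancer cell MDA-MB-231-D3H2LN, which derives from human MDA-MB-231 breast tumour cells: *JAG1* knockout clone 2, *JAG1* knockout clone 1 and wild-type cells that express *JAG1*, with 3 libraries each. Both knockouts were made by transfecting Cas9 protein loaded with guides against separate places of a *JAG1* exon, and each clone descends from a single cell and is homozygous per the labels. The medium of all 3 lines was DMEM rich in glucose with 10% serum. Each clone is 1 line, so a difference between a clone and wild type describes that line. The labels do not say that replicates came from separate cultures, so the p-values speak of the spread among these libraries alone, and that spread may be technical.

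Notch receptors are activated when a ligand such as JAG1 on a neighbouring cell binds them and is pulled into its own cell by ubiquitin-driven endocytosis, which exposes the receptor to cutting by ADAM proteases and then by gamma-secretase. Sugars on the EGF-like repeats of the receptor set how it folds, how well it is cut and which ligands it answers to. The fringe enzymes are known for shifting the response between Delta-type and Jagged-type ligands, and the Numb adaptors for lowering Notch at the membrane.

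Libraries held 16890890 to 22456164 counts, and 16921 genes, all 10 included, had enough counts for a test. Differences were tested with edgeR's quasi-likelihood test over all these genes, and a gene was called at a Benjamini-Hochberg adjusted p under 0.05. The comparisons of clone 1 and clone 2 with wild type share the wild-type libraries, so they are given side by side only. *JAG1* (chromosome 20, 10637684 to 10674107, minus strand) had 76.1, 68.1 and 56.5 CPM (counts scaled to a common library size with TMM factors) in clone 2, 110.3, 80.8 and 92.3 CPM in clone 1, and 246.2, 160.9 and 180.6 CPM in wild type. All 6 knockout libraries lay below the wild-type range, with a log2 fold change of -1.55 ± 0.18 (SE, adjusted p = 0.00013, edgeR) in clone 2 and -1.05 ± 0.18 (adjusted p = 0.00312, edgeR) in clone 1. These counts cover the whole gene and not only the edited exon. Of 6 genes known to be high in this cell type, among them *VIM* and *CD44*, all were detected, with a summed level of 5952.2 to 7587.7 CPM in clone 2, 3932.9 to 4732.6 CPM in clone 1 and 3952.3 to 5813.5 CPM in wild type. Of 6 genes expected to be low, *ESR1*, *PGR* and *CDH1* stayed under 1 CPM on average in each line, while *ERBB2*, *EPCAM* and *GATA3* were detected, with *ERBB2* at 94.8, 81.2 and 90.5 CPM in clone 2, clone 1 and wild type. The 9 markers of leukocytes, endothelium and stroma summed to 4.64 to 7.26 CPM in clone 2, 17.6 to 20.6 CPM in clone 1 and 15.4 to 32.3 CPM in wild type, with *CD3E* at 0 counts in every library. *LUM* was part of that sum, at 0.44 ± 0.282, 9.83 ± 1.91 and 13.5 ± 6.17 CPM (SD, n = 3) in the 3 lines in that order.

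Of the 10 genes, 2 were called in clone 1 against wild type, *NEURL1B* and *NUMBL*, both lower, where 5.51% of all tested genes were called, 1.41% higher and 4.10% lower. In clone 2 against wild type 1 was called, *POGLUT1*, again lower, where 5.96% of all genes were called, 3.21% higher and 2.75% lower. Between the clones 5 were called: *NEURL1B*, *MIB1*, *POFUT1* and *NUMBL* were higher in clone 2 and *POGLUT1* was lower, where 33.9% of all genes were called, 19.8% higher and 14.1% lower. Libraries did not overlap for 3 of the 10 in clone 1 against wild type (29.6% of all tested genes), 4 in clone 2 against wild type (25.9%) and 7 between the clones (47.4%). The median log2 fold change of the 10 was -0.14 in clone 1, -0.15 in clone 2 and 0.04 between the clones, against -0.02, 0.00 and -0.01 for all tested genes. In bulk RNA, fewer cells that express a gene and less RNA per cell cannot be told apart. What replicate numbers mark is not given in the labels. Libraries of clone 2 and wild type with the same number had correlated deviations from their group means (0.223, 0.269 and 0.246) and were taken as paired. The main edgeR test did not use this pairing. With the replicate number as a block, 3 of the 10 were called in clone 2 against wild type (*POGLUT1*, *LFNG* and *ADAM17*, all lower) and 2699 of all tested genes, against 1008 without the block. The block was fitted over all 9 libraries. In clone 1 against wild type, where the numbers were not taken as paired, it also raised the calls over all genes, from 933 to 2322. As all comparisons share that fit, the rise cannot show which lines the numbers pair.

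**Figure D1:**
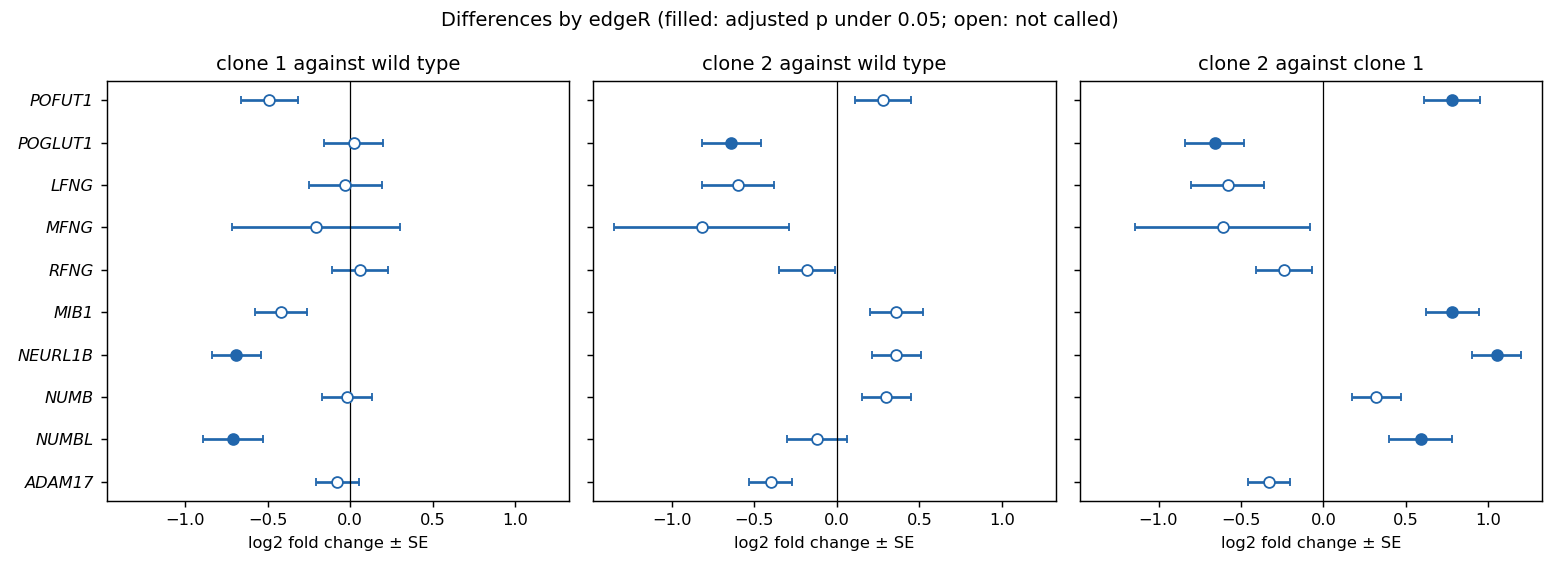
Log2 fold change of each of the 10 genes in clone 1 against wild type, clone 2 against wild type and clone 2 against clone 1, with bars of 1 SE and filled points for an edgeR adjusted p under 0.05. *NEURL1B* and *NUMBL* are filled in clone 1, *POGLUT1* in clone 2, and 5 genes between the clones.

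For 3 of the genes that were called, the 250 bases before the RefSeq transcription start are shown, as the annotated promoter of each gene. Transcription starts were not measured in these cells. *POGLUT1* and *NEURL1B* were called against wild type, and *POFUT1* differed between the clones and is the most abundant of the 10. The sequences are from RefSeq (GRCh38.p14), 5′ to 3′ along the gene. Capitals mark matches to TGGGAA or its reverse complement TTCCCA, the core letters read by the Notch partner RBPJ, and to the E-box CACGTG. For *POGLUT1* the end of the window reaches just inside the gene as the count tables delimit it.
POGLUT1 (chr3:119468713-119468962, plus strand): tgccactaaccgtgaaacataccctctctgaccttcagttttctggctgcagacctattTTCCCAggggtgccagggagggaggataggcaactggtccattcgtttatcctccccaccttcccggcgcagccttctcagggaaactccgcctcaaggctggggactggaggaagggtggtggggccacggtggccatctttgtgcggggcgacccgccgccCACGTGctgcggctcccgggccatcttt
NEURL1B (chr5:172641013-172641262, plus strand): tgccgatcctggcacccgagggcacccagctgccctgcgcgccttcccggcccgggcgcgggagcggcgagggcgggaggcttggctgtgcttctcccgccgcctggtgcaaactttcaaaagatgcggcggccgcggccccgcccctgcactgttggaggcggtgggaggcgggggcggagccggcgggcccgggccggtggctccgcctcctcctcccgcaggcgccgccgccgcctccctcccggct
POFUT1 (chr20:32207630-32207879, plus strand): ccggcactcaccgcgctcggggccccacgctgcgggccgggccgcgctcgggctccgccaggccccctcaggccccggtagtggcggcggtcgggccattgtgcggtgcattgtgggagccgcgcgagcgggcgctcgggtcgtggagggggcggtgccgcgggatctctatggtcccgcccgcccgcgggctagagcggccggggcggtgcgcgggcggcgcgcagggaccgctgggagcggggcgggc
The *POGLUT1* window holds TTCCCA 191 bases and CACGTG 28 bases before the start, while the other 2 windows hold neither. Among 35116 promoter windows of this length, 20.8% hold the RBPJ core letters and 6.34% hold CACGTG on either strand. Windows were given for 9 of the 10 genes, 11 in all, and the only other match was TGGGAA in the second window of *LFNG*. The *POFUT1* and *NEURL1B* windows are rich in G and C, at 81.6% and 78.4%, against 62% for *POGLUT1*.

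Per length, in TPM (counts divided by exon length and scaled to the same total in each library), *POFUT1* was the most abundant of the 10 in every line, at 137.9 TPM in clone 2, 81.0 TPM in clone 1 and 118.0 TPM in wild type, the last above 91.7% of tested genes. In wild type *ADAM17* (37.5 TPM), *NUMB* (33.1 TPM), *RFNG* (24.6 TPM), *LFNG* (24.4 TPM) and *MIB1* (19.2 TPM) followed, and each of these overlapped its neighbour in the order. Below them came *NEURL1B* (14.7 TPM), *NUMBL* (11.9 TPM), *POGLUT1* (8.18 TPM) and *MFNG* (2.12 TPM), with library ranges that did not touch each other. In clone 1 the lower end of that order differed: *NEURL1B* (8.76 TPM) overlapped *POGLUT1* (8.03 TPM), and *NUMBL* (6.96 TPM) lay under both. In clone 2 *NEURL1B* (18.4 TPM) overlapped *RFNG* (21.2 TPM) above it and *LFNG* (15.7 TPM) below it, and *POGLUT1* was at 5.11 TPM.

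**Figure D2:**
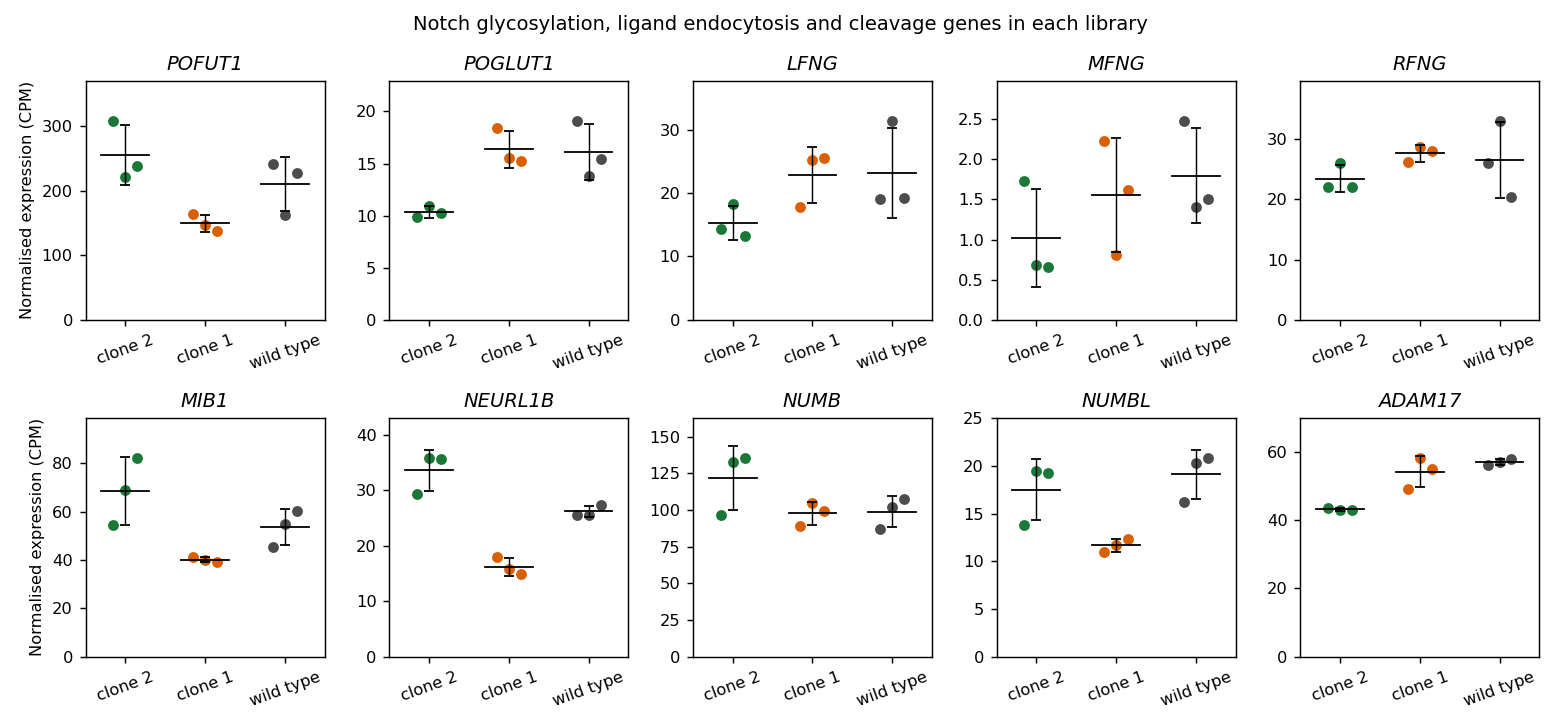
Normalised expression in CPM of the 10 genes in each library, with the 3 libraries of clone 2, clone 1 and wild type side by side in replicate order, and the mean with bars of 1 SD. *POGLUT1* and *ADAM17* sit lowest in clone 2, and *NEURL1B*, *MIB1* and *NUMBL* sit lowest in clone 1.

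*POFUT1* (GRCh38, chromosome 20, 32207880 to 32238667, plus strand), the enzyme that puts O-fucose on EGF-like repeats of Notch, had 308.6, 220.8 and 238.5 CPM in clone 2, 163.8, 147.7 and 137.1 CPM in clone 1, and 240.9, 163.0 and 227.6 CPM in wild type. The clone libraries did not overlap, and wild-type replicate 2 lay within the clone 1 range. *POFUT1* was 1.71-fold higher in clone 2 than in clone 1 (log2 fold change 0.78 ± 0.17, SE, adjusted p = 0.00341, edgeR), and this was called in all 17 alternatives. Against wild type the log2 fold change was 0.28 ± 0.17 in clone 2 (adjusted p = 0.342) and -0.49 ± 0.17 in clone 1 (adjusted p = 0.110), both uncalled by edgeR.

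*POGLUT1* (chromosome 3, 119468938 to 119494708, plus strand), which adds O-glucose to the same repeats, showed another pattern. It had 9.84, 10.9 and 10.3 CPM in clone 2, from 159 to 225 counts per library, 18.4, 15.5 and 15.2 CPM in clone 1, and 19.1, 13.8 and 15.4 CPM in wild type. The 3 clone 2 libraries lay below all 6 others. The level in clone 2 was 0.642 times that in wild type (log2 fold change -0.64 ± 0.18, adjusted p = 0.0491, edgeR) and 0.632 times that in clone 1 (-0.66 ± 0.18, adjusted p = 0.0114), while clone 1 stood at 0.02 ± 0.18 (adjusted p = 0.958) against wild type. The call against wild type was narrow: it was lost on leaving out any library other than wild-type replicate 3, with an adjusted p of 0.0583 to 0.229 in those 8 edgeR fits, and with only clone 2 and wild type in the fit (0.0927) and in limma-voom (0.0599). The call between the clones was lost without clone 1 replicate 1 (adjusted p = 0.0535, edgeR).

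The other 11 genes of Notch glycosylation in the list used here, which include transferases that act beside or after POFUT1 and POGLUT1 and the makers and carriers of GDP-fucose, were all tested. The most abundant of them in wild type was *TSTA3*, which makes the last step to GDP-fucose, at 81.6 TPM. In clone 1 against wild type edgeR called 0 of 11, with 0 at an unadjusted p under 0.05 and 0 by DESeq2 and by limma-voom. Of all tested genes, 5.51% were called by edgeR in that comparison and 21.8% had an unadjusted p under 0.05. In clone 2 against wild type 1 rose, *GMDS*, the first enzyme on the way to GDP-fucose, at 55.7 ± 1.41 CPM in clone 2 and 35.9 ± 8.05 CPM in wild type (SD, n = 3; log2 fold change 0.63 ± 0.16, adjusted p = 0.0313, edgeR). That call was lost in the fit of 6 libraries (adjusted p = 0.0745) and without wild-type replicates 1 or 2, clone 1 replicate 2 or clone 2 replicate 3 (0.0534 to 0.144). Between the clones 2 of 11 were higher in clone 2: *GMDS* (0.78 ± 0.16, adjusted p = 0.00185) and *B4GALT1* (0.73 ± 0.15, adjusted p = 0.00179), a galactosyltransferase that can extend fringe-made sugars. The list median was 0.18 between the clones, against -0.01 for all genes. Of all tested genes, 5.96% were called in clone 2 against wild type (3.21% higher) and 33.9% between the clones (19.8% higher).

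The fringe genes encode the enzymes that add N-acetylglucosamine to O-fucose. *LFNG* (chromosome 7, 2512529 to 2529177, plus strand) had 14.4, 18.3 and 13.2 CPM in clone 2, 17.8, 25.2 and 25.5 CPM in clone 1, and 19.0, 31.4 and 19.2 CPM in wild type. All clone 2 libraries lay below wild type, and they overlapped clone 1 by 1 library. The log2 fold change in clone 2 against wild type was -0.60 ± 0.22 with an adjusted p of 0.109, and with the replicate block it was -0.58 with an adjusted p of 0.0183 (edgeR). Against clone 1 it was -0.58 ± 0.22 with an adjusted p of 0.0527, just over the threshold, and 7 of the 8 alternatives that leave out no library called it, with limma-voom the exception. Of the 9 edgeR fits that leave out a library 4 called it, with an adjusted p of 0.0221 to 0.174 over the 9. In clone 1 against wild type the value was -0.03 ± 0.22 (adjusted p = 0.960).

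*RFNG* (chromosome 17, 82047902 to 82051831, minus strand) had 22.1, 26.0 and 22.1 CPM in clone 2, 26.1, 28.7 and 28.0 CPM in clone 1, and 26.0, 33.0 and 20.4 CPM in wild type. The clones did not overlap, the lowest clone 1 library standing just above the highest clone 2 library, and the wild-type range covered both. The log2 fold change between the clones was -0.24 ± 0.17 (adjusted p = 0.307, edgeR). Correcting for GC content and gene length gave -0.39 (adjusted p = 0.049, edgeR), on the other side of the threshold. Exons of *RFNG* share 835 bases with *GPS1* on the opposite strand, which had 25122 counts over the 9 libraries against 4689 for *RFNG*, and the strand setting of the counting is not given in the sources used here.

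*MFNG* (chromosome 22, 37469063 to 37486401, minus strand) had the lowest level of the 10, with 14 to 28 counts per library in clone 2, 17 to 43 in clone 1 and 30 to 51 in wild type. Its log2 fold change was -0.82 ± 0.53 in clone 2 (adjusted p = 0.360) and -0.21 ± 0.51 in clone 1 (adjusted p = 0.846) against wild type, both uncalled by edgeR. Within the summed TPM of the 3 fringes, *LFNG* made up 41.0 ± 2.24% in clone 2, 46.3 ± 4.59% in clone 1 and 47.4 ± 4.36% in wild type (SD, n = 3). *RFNG* made up 55.8%, 50.0% and 48.2%, and *MFNG* 3.16%, 3.68% and 4.36%, in the same order. The *LFNG* share was lower in clone 2 than in the wild-type library of the same number in each of the 3 pairs, at 40.1, 43.6 and 39.4% in clone 2 against 42.5, 50.5 and 49.3% in wild type. Clone 1, at 41.0, 49.0 and 49.0%, was also lower at each number, so this was not particular to clone 2. The numbers of clone 1 were not taken as paired. An unpaired two-sided exact permutation test gave p = 0.2 in clone 2 against wild type and against clone 1 and 0.5 in clone 1 against wild type, but 3 libraries a group cannot go below 0.1, so it cannot settle whether the shares differ.

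*MIB1* (chromosome 18, 21704957 to 21870957, plus strand), the ubiquitin ligase that marks Delta and Jagged ligands for uptake, had 54.4, 69.0 and 82.4 CPM in clone 2, 41.2, 39.8 and 39.2 CPM in clone 1, and 45.4, 55.0 and 60.1 CPM in wild type. Every clone 1 library lay below every library of the other lines, and clone 2 overlapped wild type. *MIB1* was 1.71-fold higher in clone 2 than in clone 1 (0.78 ± 0.16, adjusted p = 0.00198, edgeR), a call kept in all 17 alternatives. Against wild type the log2 fold change was 0.36 ± 0.16 in clone 2 (adjusted p = 0.180) and -0.42 ± 0.16 in clone 1 (adjusted p = 0.140). Without clone 2 replicate 1 the clone 2 value was 0.52 with an adjusted p of 0.0438 (edgeR). With the GC and length correction and the replicate block together, both clones were called against wild type, higher at 0.39 in clone 2 (adjusted p = 0.0325) and lower at -0.39 in clone 1 (adjusted p = 0.0382, edgeR).

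*NEURL1B* (chromosome 5, 172641266 to 172691540, plus strand), a Neuralized-type ligase that also acts on Notch ligands, did not overlap between any pair of lines. It had 29.3, 35.9 and 35.6 CPM in clone 2, 17.9, 15.8 and 14.8 CPM in clone 1, and 25.6, 25.6 and 27.3 CPM in wild type. Clone 2 was highest and clone 1 lowest in every library. Against wild type it fell to 0.619-fold in clone 1 (-0.69 ± 0.15, adjusted p = 0.0163, edgeR), while clone 2 stood at 0.36 ± 0.15 (adjusted p = 0.151), which missed the threshold. Clone 2 was 2.08-fold above clone 1 (1.05 ± 0.15, adjusted p = 0.000164), the largest of the 10 differences between the clones and called in all 17 alternatives. The clone 1 call against wild type was lost without wild-type replicates 2 or 3 or clone 1 replicates 2 or 3, with an adjusted p of 0.052 to 0.101 (edgeR).

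Within the summed TPM of *MIB1*, *MIB2*, *NEURL1* and *NEURL1B*, the 4 ligases compared here, *NEURL1B* made up 32.6, 32.0 and 32.6% in clone 2, 24.2, 22.2 and 20.3% in clone 1, and 31.1, 28.0 and 30.0% in wild type. *MIB2* made up 27.7, 27.4 and 18.3% in clone 2, 38.0, 39.9 and 44.2% in clone 1, and 31.5, 30.3 and 25.0% in wild type. The *MIB2* share was thus highest in clone 1 (two-sided exact permutation p = 0.1 against either other line, the smallest possible), though its own level was not called (log2 fold change 0.22 ± 0.16 against wild type, adjusted p = 0.454, edgeR). *NEURL1* contributed 0.94%, 1.78% and 2.59% in clone 2, clone 1 and wild type.

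**Figure D3:**
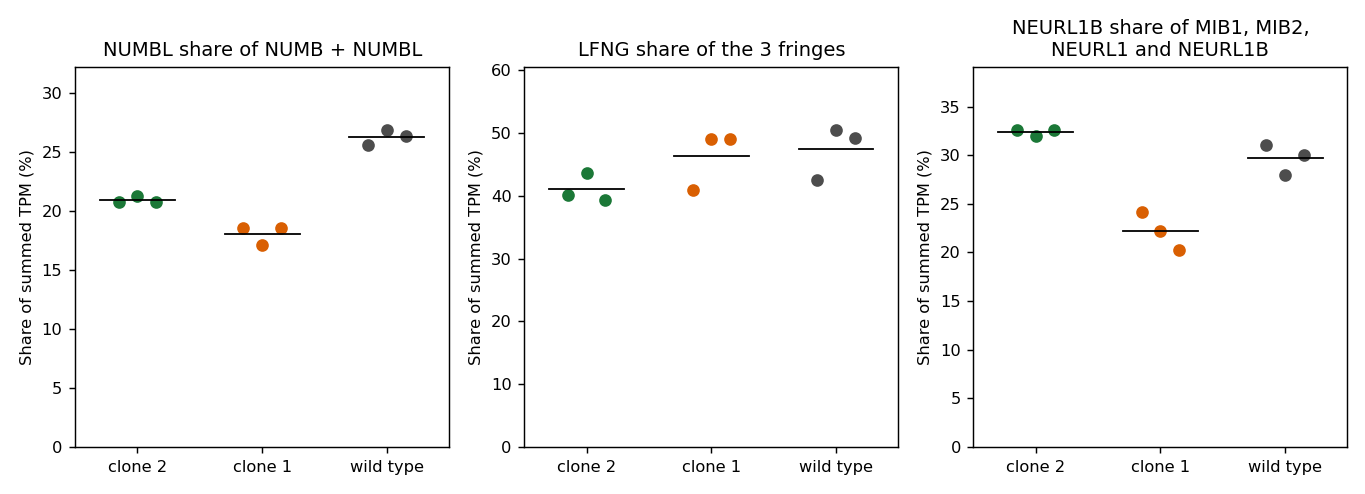
Share of summed TPM, in percent, of *NUMBL* within *NUMB* and *NUMBL*, of *LFNG* within the 3 fringes, and of *NEURL1B* within the 4 ligand ligases, per library, with the mean as a line. The *NUMBL* and *NEURL1B* shares of the 3 lines do not overlap, while the *LFNG* shares do.

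*NUMB* (chromosome 14, 73275107 to 73463642, minus strand) and *NUMBL* (chromosome 19, 40665905 to 40690972, minus strand) encode related adaptors that link membrane proteins to endocytosis and are known as antagonists of Notch. *NUMB* had 96.8, 133.0 and 135.9 CPM in clone 2, 89.3, 104.9 and 99.3 CPM in clone 1, and 87.0, 102.1 and 107.6 CPM in wild type, and the ranges overlapped in every comparison. Its log2 fold change was 0.30 ± 0.15 in clone 2 (adjusted p = 0.240) and -0.02 ± 0.15 in clone 1 (adjusted p = 0.968) against wild type, and 0.32 ± 0.15 between the clones (adjusted p = 0.119, edgeR). Clone 2 replicate 1 held the clone 2 mean down, and without it the clone difference was 0.46 (adjusted p = 0.0211, edgeR).

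*NUMBL* had 13.8, 19.5 and 19.3 CPM in clone 2, 11.0, 11.7 and 12.3 CPM in clone 1, and 16.2, 20.3 and 20.9 CPM in wild type. Clone 1 lay below both other lines with no overlap, and clone 2 overlapped wild type. It fell to 0.610-fold in clone 1 against wild type (-0.71 ± 0.18, adjusted p = 0.0351, edgeR), and was 1.50-fold higher in clone 2 than in clone 1 (0.59 ± 0.19, adjusted p = 0.0227), while clone 2 against wild type gave -0.12 ± 0.18 (adjusted p = 0.722). The clone 1 call was lost without wild-type replicates 2 or 3, any clone 1 library or clone 2 replicate 2 (adjusted p 0.052 to 0.178). The call between the clones was lost without any clone 1 library or clone 2 replicates 2 or 3 (0.0517 to 0.108) and once GC content and length were corrected for (0.43, adjusted p = 0.0609, edgeR).

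Of the summed TPM of *NUMB* and *NUMBL*, *NUMBL* made up 20.8, 21.3 and 20.8% in clone 2, 18.6, 17.1 and 18.6% in clone 1, and 25.6, 26.9 and 26.4% in wild type. Both clones thus had a lower *NUMBL* share than wild type in 6 of 6 libraries with a difference of -5.33 percentage points in clone 2 and -8.2 in clone 1. The levels behind the shares differed. In clone 1 *NUMBL* was at a log2 fold change of -0.71 and *NUMB* at -0.02 against wild type. In clone 2 *NUMBL* was at -0.12 and *NUMB* at 0.30, both uncalled. The exact permutation test gave p = 0.1 (two-sided) for the *NUMBL* share and for the *NEURL1B* share in each of the 3 comparisons, the smallest p that 20 splits of 6 libraries allow, and 0.167 adjusted over the 15 share comparisons made.

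The other ligand endocytosis and ubiquitin genes number 18, of which 16 were tested. *ITCH*, a HECT-type ubiquitin ligase of Notch, was the most abundant per length in wild type at 59.9 TPM. Of all tested genes, edgeR called 4.10% lower and 1.41% higher in clone 1 against wild type, and 2.75% and 3.21% in clone 2. In clone 1 against wild type 3 of 16 fell and 0 rose: *EPN1*, an epsin that couples ubiquitinated ligands to clathrin coats (-0.56 ± 0.15, adjusted p = 0.0372), *ITCH* (-0.55 ± 0.15, adjusted p = 0.0439) and *DTX4*, a Deltex-type ligase at only 0.937 CPM in clone 1 and 2.85 CPM in wild type (-1.61 ± 0.45, adjusted p = 0.0468, edgeR). In clone 2 against wild type 2 of 16 rose and 0 fell: *EPN1* (0.51 ± 0.15, adjusted p = 0.0483) and *NEDD4L*, a NEDD4-family ligase (0.75 ± 0.20, adjusted p = 0.0355, edgeR). *EPN1* passed the test in opposite directions, with 307.1 ± 44.0 CPM in clone 2, 146.3 ± 8.61 CPM in clone 1 and 215.3 ± 10.2 CPM in wild type (SD, n = 3). Each of these 5 calls against wild type was lost in at least 5 of the 9 edgeR fits that leave out a library, with the highest adjusted p at 0.17, 0.258 and 0.236 for the 3 genes of clone 1 and 0.197 and 0.181 for those of clone 2. Both *EPN1* calls were also lost under the GC and length correction (0.41 with adjusted p = 0.111 in clone 2, -0.42 with adjusted p = 0.126 in clone 1), and the clone 2 call with RLE size factors (0.0573), no filter (0.0634) and 6 libraries (0.113). *ITCH* was lost with RLE size factors (adjusted p = 0.0523), *DTX4* with RLE size factors (0.0502), that correction (0.0633) and limma-voom (0.0903), and *NEDD4L* with 6 libraries (0.0896).

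Between the clones 7 of these 16 genes were higher in clone 2 and 1 was lower, with a median log2 fold change of 0.44 against -0.01 for all genes, beside the 19.8% and 14.1% of all tested genes given above. *NEDD4L* had 175.8 ± 43.7 CPM in clone 2 and 73.1 ± 0.689 CPM in clone 1 (1.27 ± 0.20, adjusted p = 0.000301, edgeR). *EPN1* (1.07 ± 0.15, adjusted p = 0.000123), *WWP2* (0.90 ± 0.16, adjusted p = 0.000788), *ITCH* (0.84 ± 0.15, adjusted p = 0.00072) and *NEDD4* (0.51 ± 0.16, adjusted p = 0.0251) were also higher, the last 3 being ligases of the same HECT family as *NEDD4L*. *DNM2*, the dynamin that pinches off coated vesicles (0.52 ± 0.14, adjusted p = 0.00897), lost its call once GC content and length were corrected for (0.27, adjusted p = 0.105). *DTX4* (1.20 ± 0.45, adjusted p = 0.0498) lost its call in each of the 9 edgeR fits without a library. It also lost it with RLE size factors (adjusted p = 0.0569), no filter (0.0681), 6 libraries (0.0672) and limma-voom (0.0938). The GC and length correction gave 0.0948 for *DTX4*, and 0.0917 with the block added (edgeR). *DTX3*, another Deltex-type ligase, was lower in clone 2 (-0.95 ± 0.25, adjusted p = 0.00862). The *NEDD4* call was lost without clone 1 replicate 3 or clone 2 replicates 2 or 3 (adjusted p 0.0868 to 0.123, edgeR), and that of *DTX3* without clone 2 replicate 3 (0.0533).

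*ADAM17* (chromosome 2, 9488486 to 9555792, minus strand) encodes a sheddase of many surface proteins that can cut Notch outside the membrane. It had 43.7, 43.0 and 43.0 CPM in clone 2, 49.3, 58.4 and 54.9 CPM in clone 1, and 56.2, 57.2 and 57.9 CPM in wild type. The clone 2 libraries were within 1 CPM of each other and below all 6 others. The log2 fold change in clone 2 was -0.40 ± 0.13 against wild type (adjusted p = 0.0693) and -0.33 ± 0.13 against clone 1 (adjusted p = 0.0578, edgeR), both just over the threshold. With the replicate block the value against wild type was -0.40 with an adjusted p of 0.0305, and DESeq2 called both (adjusted p 0.0211 and 0.0191). Clone 1 against wild type gave -0.08 ± 0.13 (adjusted p = 0.762). Exons of *ADAM17* share 1323 bases with *IAH1* on the opposite strand, at 7042 counts over the 9 libraries against 9329 for *ADAM17*.

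Of 16 other cleavage genes, which include ADAM10, the protease of ligand-induced Notch cutting, the gamma-secretase subunits and the partners of ADAM10 and ADAM17, edgeR called 0 in clone 1 and 0 in clone 2 against wild type. Of all tested genes, 5.51% and 5.96% were called. At an unadjusted p under 0.05 there were 1 and 3 of the 16, where 21.8% and 24.2% of all tested genes passed. DESeq2 called *TSPAN17* in clone 1 and *TSPAN33* in clone 2, and limma-voom called 0 and *TSPAN33*. *TIMP3*, an inhibitor of ADAM17, was the most abundant per length in wild type at 402.3 TPM and was not called. Between the clones 2 of the 16 rose and 2 fell, where 33.9% of all tested genes were called, 19.8% higher and 14.1% lower. *TSPAN33* (0.88 ± 0.17, adjusted p = 0.00116) and *TSPAN17* (0.71 ± 0.14, adjusted p = 0.00143) were higher in clone 2, and *TSPAN15* was lower (-0.52 ± 0.18, adjusted p = 0.033, edgeR). These 3 are tetraspanins that escort ADAM10 and steer it to different substrates, and the *TSPAN15* call was lost without clone 1 replicates 2 or 3 or clone 2 replicates 1 or 2. *RHBDF1*, an iRhom that carries ADAM17 to the surface, was lower at 26.9 ± 7.68 CPM in clone 2 and 53.2 ± 16.7 CPM in clone 1 (-0.98 ± 0.24, adjusted p = 0.006), with libraries that overlapped. *ADAM10* itself was at 157.2 ± 13.3 CPM in clone 2, 137.5 ± 11.7 CPM in clone 1 and 164.8 ± 8.65 CPM in wild type and was not called in any comparison (adjusted p 0.270 to 0.800).

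**Figure D4:**
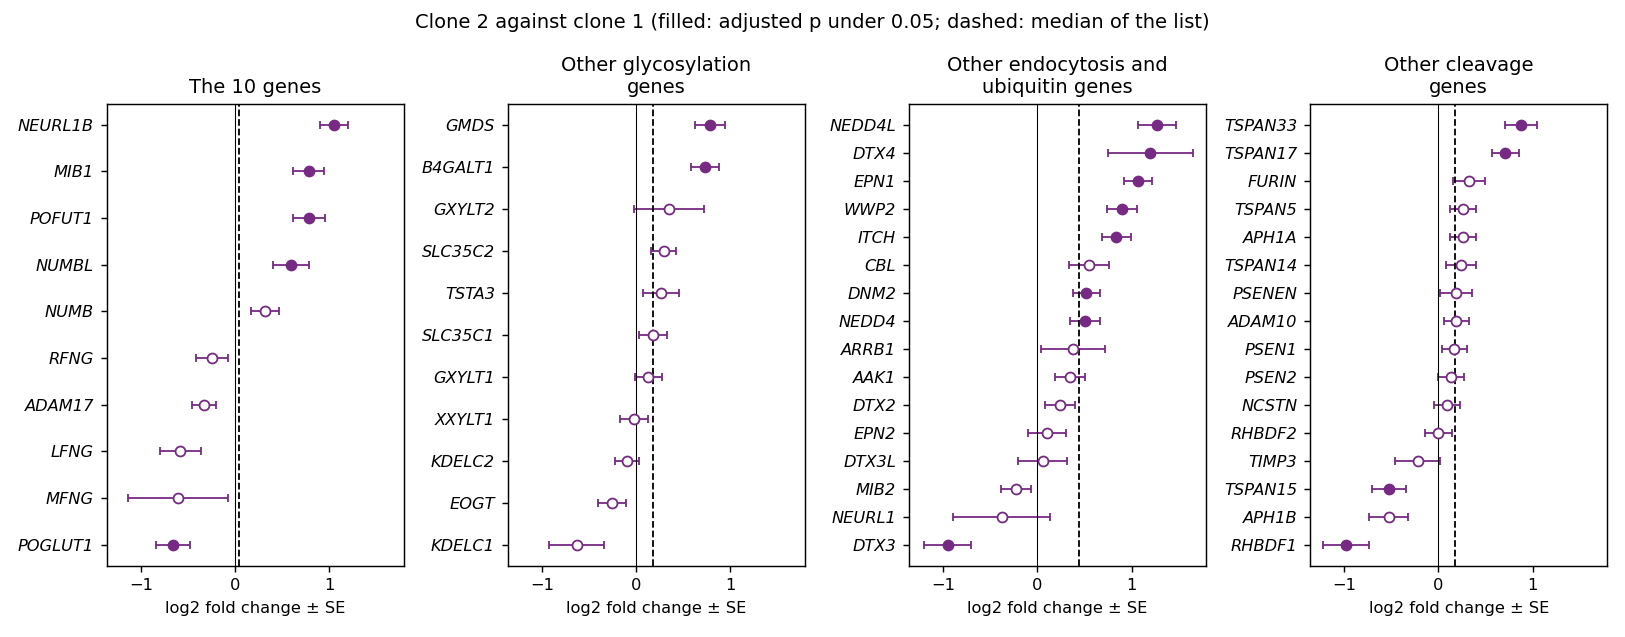
Log2 fold change in clone 2 against clone 1, with bars of 1 SE, of the 10 genes and of the other tested genes of glycosylation, ligand endocytosis and ubiquitin, and cleavage, with filled points for an edgeR adjusted p under 0.05 and a dashed line at the median of each list. The endocytosis and ubiquitin list has the most filled points, 7 higher and 1 lower in clone 2, and its median is 0.44.

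Of the 9 Notch ligands and receptors 7 were tested, and *JAG1* was the only one called by edgeR in each comparison. Between the clones its log2 fold change was -0.50 ± 0.18 (adjusted p = 0.0398, edgeR), lower in clone 2, a call lost without clone 1 replicates 1 or 3 or clone 2 replicate 3 (0.0876 to 0.172). *JAG1* was the most abundant of the list in wild type, at 82.6 TPM. *NOTCH2*, the receptor with the highest level, was at 300.6 ± 42.7 CPM in clone 2, 225.8 ± 19.7 CPM in clone 1 and 272.4 ± 34.8 CPM in wild type (0.41 ± 0.16 between the clones, adjusted p = 0.0535), and DESeq2 and limma-voom called it between the clones.

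Some of the genes lie where the surrounding genes differed between the lines too. Around *POFUT1*, 89 tested genes within 5 Mb had a median log2 fold change of 0.31 in clone 2 and -0.38 in clone 1 against wild type and 0.63 between the clones, and 56.2% of them lay below *POFUT1* in the last comparison. All 445 tested genes of chromosome 20, which also holds *JAG1*, had medians of 0.08, -0.3 and 0.3 in that order. Around *NEURL1B*, 73 genes had medians of 0.25, -0.29 and 0.41 in the same order, and 69.9% lay below it between the clones. *POFUT1* and *NEURL1B* thus stood inside the spread of their neighbourhoods and on the side of their medians.

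Around *POGLUT1*, 43 genes had a median of -0.46 in clone 2 and -0.37 in clone 1 against wild type. *POGLUT1* was on the side of its neighbours in clone 2, with 30.2% of them lower still, and not in clone 1, where it stood at 0.02 and above 72.1% of them. Between the clones its neighbours had a median of -0.04, and 25.6% of them lay below *POGLUT1*. *MIB1* exceeded all 26 of its tested neighbours between the clones, whose median was 0.16, and *NUMBL* lay below all but 4.29% of its 233 neighbours in clone 1, whose median was -0.04. *LFNG* lay below all but 5.63% of 71 neighbours in clone 2 against wild type, whose median was 0.20. These are the comparisons where each gene stood furthest out. Against wild type, 11.5% of the neighbours lay below *MIB1* in clone 1 and 84.6% in clone 2. For *NUMBL* the share below was 41.2% in clone 2 against wild type and 79.8% between the clones. For *LFNG* it was 50.7% in clone 1 against wild type and 21.1% between the clones. DNA copy number was not measured, and the part of the neighbourhood in these differences was not tested.

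**Figure D5:**
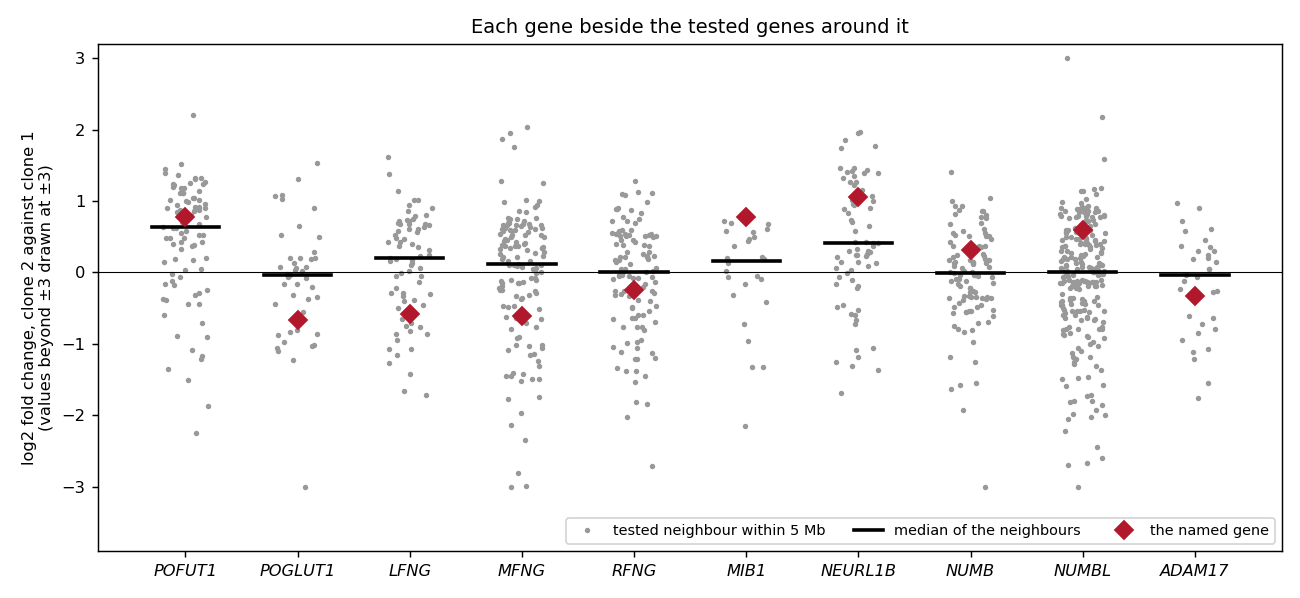
Log2 fold change in clone 2 against clone 1 of each of the 10 genes (diamonds) and of the tested genes within 5 Mb on either side (grey points, median as a line), with values beyond 3 drawn at 3. *MIB1* stands above all of its neighbours, while *POFUT1* and *NEURL1B* stand among neighbours whose medians are 0.63 and 0.41.

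Profiles over the 9 libraries were compared by the root mean square distance of log2 CPM, each gene centred on its own mean. Symbols matching a pattern for clone-based, LOC or open reading frame names were left out. Among the other tested genes, those with the most similar profile were found for the 3 genes called against wild type. For *NEURL1B*, whose own root mean square deviation was 0.447, these were *REXO4* (distance 0.0729), *ACBD3* (0.0889) and *LSM14B* (0.0917), which were 1.06, 0.97 and 1.05 higher on the log2 scale in clone 2 than in clone 1. For *POGLUT1* (0.331) they were *GSTCD* (0.0978), *TAF11* (0.102) and *PTPN2* (0.131). For *NUMBL* (0.346) they were *H1F0* (0.093), *RAB6A* (0.104) and *SORBS3* (0.105). These are descriptions over 9 libraries that share depth and lines.

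Summed levels of the markers that are high in this cell type were higher in clone 2 than in clone 1, while clone 1 and wild type overlapped. *VIM* (1965.8 ± 291.5 CPM in clone 2, 844.8 ± 78.4 CPM in clone 1 and 1218.3 ± 275.7 CPM in wild type) and *MSN* (log2 fold change 1.33 ± 0.19 between the clones, adjusted p = 0.000177, edgeR) were higher in clone 2. So were *AXL* (0.57) and *CAV1* (0.53), but *CD44* (0.10, adjusted p = 0.783) and *EGFR* (0.37, adjusted p = 0.109, edgeR) were not called. Among the markers expected to be low, *EPCAM* was called lower in clone 2 (-0.98) and *GATA3* higher (0.95), with *ESR1* and *ERBB2* uncalled. The part of the markers in the differences above was not tested. Clone 2 replicate 1 also stood away from the other clone 2 libraries for several of the 10 genes, with the lowest clone 2 value of *MIB1*, *NEURL1B*, *NUMB* and *NUMBL* and the highest of *POFUT1* and *MFNG*.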

How the data were processed

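RNA sequencing was done on 9 libraries, 3 each of clone 2, clone 1 and wild type. The authors deposited raw read counts per gene with gene coordinates and exon length in 2 tables, per the file headers. Both tables carry the same wild-type columns (3 of 3 identical), read from 1 table only. The submitters' processing notes name the build GRCh38 and the tools DESeq2, STAR, Subread and featureCounts. Versions, strand setting and annotation release were not given in the sources used here. Per the labels' protocols a service made the libraries from column-purified RNA. No molecular identifiers are described, so read counts are not counts of molecules. Replicates differed by more than sampling noise (chi-square per gene of 17.2 to 58.3), so none was treated as a duplicate.

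Counts were tested with edgeR 4.0.16 in R 4.3.3: TMM factors, a filterByExpr filter (minimum count 10, 16921 genes kept), and 1 quasi-likelihood model with robust dispersion over the 3 groups and 9 libraries (6 residual degrees of freedom, biological coefficient of variation 20.3%), two-sided, with Benjamini-Hochberg adjustment over all tested genes. The SE is the size of the log2 fold change divided by the square root of F. CPM uses TMM-scaled library sizes. TPM was computed from the counts and the deposited exon length. The scripts were tested on simulated data.

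The 10 genes and the lists were chosen with earlier results of these data known. All 85 list entries were matched, 3 by an older symbol, and *EPN3*, *DTX1*, *DLL3* and *DLL4* had too few counts to be tested. Genes named are *JAG1*, the 10 genes, every listed pathway gene called in any comparison, and the most abundant per length in wild type of each list. Among the symbols searched, the 3 nearest in profile to each of the 10 called against wild type are named too. Others (*ADAM10*, *NOTCH2*, *MIB2*, *NEURL1* and the marker genes) were named as family members or checks. Promoters came from RefSeq (GRCh38.p14).

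The labels do not say what replicate numbers mark. Between clone 2 and wild type, libraries of the same number had correlated deviations from their group means, at 0.223, 0.269 and 0.246, so these numbers were taken as paired. Between clone 1 and wild type the values were 0.245, 0.0825 and -0.0965, and between the clones 0.219, -0.0215 and 0.0124, so those were not. The 17 alternatives per result were RLE size factors, no filter, only the 6 libraries compared, a replicate block, a correction for GC content and length (87.3% of tested genes have a GC content, from GENCODE release 29), that correction with the block, limma-voom (limma 3.58.1), DESeq2 1.42.0, and leaving out each of 9 libraries.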

Additional observations from a re-analysis of the deposited data

Results flagged for a closer look

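Both clones are *JAG1* knockouts, and they differed from each other in the edgeR test of the difference itself, in 5 of the 10 genes and 15 other genes of the pathway lists. As log2 fold changes in clone 2 against clone 1, the 10 genes gave 1.05 for *NEURL1B*, 0.78 for *MIB1*, 0.78 for *POFUT1*, 0.59 for *NUMBL* and -0.66 for *POGLUT1*. *JAG1* gave -0.50. In the glycosylation list *GMDS* gave 0.78 and *B4GALT1* 0.73. In the endocytosis and ubiquitin list *NEDD4L* gave 1.27, *DTX4* 1.20, *EPN1* 1.07, *WWP2* 0.90, *ITCH* 0.84, *DNM2* 0.52, *NEDD4* 0.51 and *DTX3* -0.95. The *DTX4* call was lost in most alternatives. In the cleavage list *TSPAN33* gave 0.88, *TSPAN17* 0.71, *TSPAN15* -0.52 and *RHBDF1* -0.98. Since 33.9% of all tested genes were called between the clones, such a difference is common in these data.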

How the results depend on the processing

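The difference between the clones in *NEURL1B*, *MIB1* and *POFUT1* kept its direction and its call in all 17 alternatives. Over the 10 genes and 3 comparisons, 435 values kept direction and call, 27 lost a call, 27 gained a call, and 21 that were uncalled changed sign. Leaving out 1 library at a time, the 10 genes gave 0 to 2 calls in clone 1 against wild type, 0 to 1 in clone 2 against wild type and 4 to 7 between the clones, and all genes gave 200 to 1301, 237 to 1584 and 3639 to 5782. In clone 2 against wild type, 2 of the 10 were called without a filter (*LFNG* besides *POGLUT1*) and 2 by DESeq2 (*ADAM17* besides *POGLUT1*), and 0 in the fit of 6 libraries and by limma-voom. All-gene calls were 1512 without a filter and 1479 by DESeq2 in clone 1 (933 as reported), and 1663, 1818 and, with 6 libraries, 416 in clone 2 (1008 as reported). The share of calls that were higher was 25.6% in clone 1 and 53.9% in clone 2. It was 41.3% in clone 1 after the GC and length correction (345 higher, 491 lower), 46.0% with the block added, and 39.2% with 6 libraries, against 41.3% without a filter and 38.5% with 6 libraries in clone 2. Without 1 library that share ran from 18.9 to 34.2% in clone 1 and from 26.1 to 58.8% in clone 2, where it was 26.1% without wild-type replicate 2 (62 higher, 176 lower), 27.9% without wild-type replicate 1 and 31.6% without clone 2 replicate 3. Without a filter the median of all genes between the clones was -0.137, against -0.008 as reported.

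With the replicate block, 3 of the 10 and 2699 genes in all were called in clone 2 against wild type, and 3 and 2754 with the GC and length correction added (*POGLUT1* and *LFNG* lower, *MIB1* higher). In clone 1, where the numbers were not taken as paired, the block gave 2322 calls over all genes, and 2156 with the correction, which called *MIB1* lower. It added *POFUT1* (-0.48, adjusted p = 0.0226, edgeR) in clone 1, and *LFNG* (-0.58, adjusted p = 0.00679) and *ADAM17* (-0.32, adjusted p = 0.0415) between the clones. The block changed no other call of the 10 genes.

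The values that changed sign were all in clone 1 against wild type except 1. *LFNG* was at 0.00 with 6 libraries, 0.10 with the GC and length correction, 0.12 with that and the block, and -0.16 to 0.28 without 1 library. *NUMB* was at 0.01 with RLE size factors, 6 libraries and DESeq2, 0.10 with the correction and 0.10 with the block added, and -0.11 to 0.06 without 1 library. Without 1 library *POGLUT1* ran from -0.08 to 0.15, *MFNG* from -0.57 to 0.11, *RFNG* from -0.08 to 0.27, and *NUMBL* in clone 2 against wild type from -0.23 to 0.04. The cause was not tested. *MFNG* rests on 14 to 51 counts per library.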
